A study of Mus musculus with 35 samples.

Results

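The 12 libraries described here, of 35 in the series, are the rescue libraries. The cells are a mouse neuroblastoma line, N2a Flp-In rtTA, in which a doxycycline-induced, FLAG-tagged Chtop was put back after knockdown of the endogenous gene. They were chosen by condition and line from the labels: 6 come from the line whose cDNA lacks exon 5 (mEx5) and 6 from the line whose cDNA includes it (pEx5), with 2 biological replicates each of total lysate, nuclei and cytoplasm. All 12 carried Chtop siRNA and doxycycline, which came with the medium change at 24 h, and were harvested at 72 h. The same lines with Chtop siRNA and no doxycycline (knockdown, 12 libraries), and with a control siRNA and no doxycycline, are used for comparison.

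Each isoform was present in 1 line only, so line and isoform are not separable, and no library had control siRNA with doxycycline. The 3 fractions of a replicate are treated here as parts of 1 culture, because the protocol split each cell sample into a total aliquot of 20% and a part for nuclei and cytoplasm. The 12 libraries then rest on 4 cultures, and p-values over all 12 are too small. Counts per gene do not separate endogenous Chtop reads from cDNA reads.

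Chtop binds RNA and takes part in mRNA export as a partner of the TREX complex, which hands mature transcripts to the export receptor Nxf1. Its central region is rich in arginine and glycine, and the arginines are substrates of the methyltransferase Prmt1. Methylated Chtop is known to recruit the 5FMC complex, which includes the desumoylase Senp3.

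Exon 5 is shown because its presence is the one designed difference between the cDNAs. The labels give no coordinates, so the exon was taken by its number from the GENCODE M21 transcript of 6 exons, at chr3:90502116-90502253 on the minus strand of mm10. It is coding, 138 bases long (a multiple of 3), 62.3% GC, and present in 3 of 9 annotated Chtop transcripts. It is printed 5′ to 3′ as transcribed, and capitals mark in-frame arginine triplets (CGN, AGA and AGG).
Chtop exon 5: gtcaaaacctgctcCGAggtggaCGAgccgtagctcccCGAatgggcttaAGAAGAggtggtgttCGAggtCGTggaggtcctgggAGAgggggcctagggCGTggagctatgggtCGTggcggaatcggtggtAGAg
Of 45 whole triplets read in the annotated frame, 11 encode arginine and 18 (GGN) encode glycine. The exon therefore adds arginine and glycine residues to the induced protein and keeps the reading frame.

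Chtop itself was checked first. Levels are CPM, a gene's count scaled to a library total of 1000000. In total lysate Chtop stood at 186 and 221 CPM in the mEx5 rescue and at 282 and 204 in the pEx5 rescue. In nuclei it stood at 249 and 269 CPM in mEx5 and at 302 and 222 in pEx5. In cytoplasm it stood at 175 and 192 CPM in mEx5 and at 203 and 180 in pEx5. The lines overlapped in every fraction, and the first pEx5 replicate was the highest library of each. Over the 3 fractions the pEx5 line was higher by 0.10 on the log2 scale (SE 0.095; edgeR adjusted p = 0.57), which did not pass the test. Without doxycycline the pEx5 line held less Chtop than the mEx5 line: 22 and 19.8 against 32.2 and 34.7 CPM in total lysate, and a log2 difference of -0.49 over the fractions (SE 0.087; edgeR adjusted p = 0.002). That difference did not pass in any fraction fitted alone. Chtop rose with doxycycline in both lines, by 2.40 (SE 0.19) in mEx5 and by 2.98 (SE 0.20) in pEx5 on the log2 scale, with edgeR adjusted p = 2.1e-06 and 9.1e-08. The gains differed by 0.59 (SE 0.26), which did not pass the test (edgeR adjusted p = 1).

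**Figure D1:**
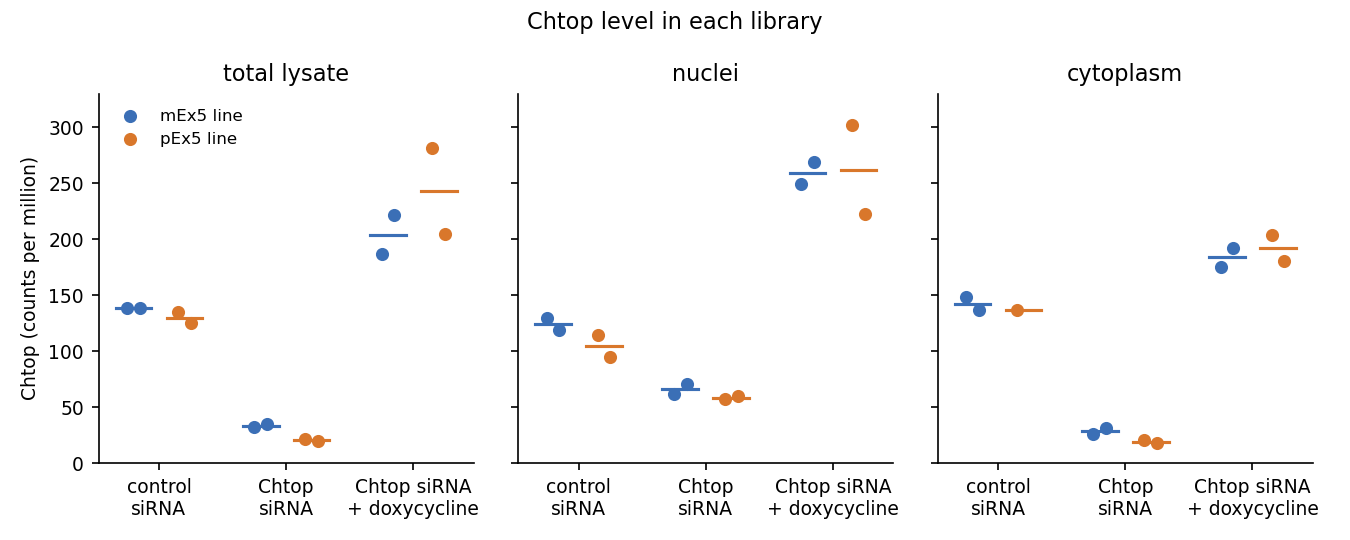
Chtop in CPM (y axis) by condition (x axis) in each fraction; points are libraries, horizontal bars are means of a line, blue is mEx5 and orange is pEx5. In the rescue libraries the lines overlap, from 175 to 269 CPM in mEx5 and from 180 to 302 in pEx5, above the control siRNA libraries of the same fraction.

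The rescue libraries held 25798811 to 33475422 counts in total lysate, 11681781 to 19693925 in nuclei and 23713623 to 40105458 in cytoplasm, over 9239 genes. Mitochondrially encoded RNA made up 3.52% to 4.97% of counts in total lysate, 0.674% to 1.61% in nuclei and 2.04% to 2.52% in cytoplasm. Malat1, a nuclear noncoding RNA, stood at 945 to 1216 CPM in nuclei and 54.9 to 77.4 in cytoplasm. The SD over genes of the log2 difference between replicates of a line was 0.211 (mEx5) and 0.263 (pEx5) for total lysate, 0.26 and 0.331 for nuclei, and 0.154 in both lines for cytoplasm. Between the lines, within a replicate number, it was 0.207 and 0.173 for total lysate, 0.215 and 0.299 for nuclei, and 0.195 and 0.203 for cytoplasm. In cytoplasm both values between lines exceeded those between replicates.

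With the 3 fractions fitted together, 406 genes were higher (4.39%) and 314 lower (3.4%) in the pEx5 rescue than in the mEx5 rescue, 7.79% of 9239 tested (edgeR quasi-likelihood test with fraction and replicate number as covariates, Benjamini-Hochberg adjusted p under 0.05). Most differences were small: 55 of the 720 reached 1.5-fold, 2 were at least 2-fold higher and 3 at least 2-fold lower. The lines did not overlap in any fraction, in the same direction, for 648 genes (7.01% of those tested), of which 436 were among the 720. Summing the fractions of each culture, which leaves 2 against 2, called 113 genes (1.22%; 80 higher and 33 lower), 111 of them among the 720. The count also rested on each culture. It was 217 without the first mEx5 culture, 52 without the second, 269 without the first pEx5 culture and 139 without the second. The genes named next come from the 10 highest and 10 lowest values among called genes without overlap, with a mean of at least 5 CPM; that their lines do not overlap follows from this rule. Of these 20, 19 were called with summed cultures and 18 under every alternative tried.

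Among genes higher in pEx5, Enpp3 led; it encodes a cell-surface nucleotide pyrophosphatase (ENSMUSG00000019989.8, chr10:24772406-24842823, minus strand, mm10). Enpp3 stood at 13.3 and 10.5 CPM in mEx5 and 24.5 and 34.2 in pEx5 in total lysate. In nuclei it stood at 15.9 and 11.8 against 37.3 and 40.8 CPM, and in cytoplasm at 15.1 and 11.5 against 31.3 and 37.3. Every pEx5 library lay above every mEx5 library, and the difference was 2.62-fold, or 1.39 on the log2 scale (SE 0.11; edgeR adjusted p = 4.9e-06).

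Phlda1, a pleckstrin-homology-like protein, ranged from 22.2 to 32.1 CPM (median 24.4) over the 6 mEx5 libraries and from 40.2 to 72.1 (median 48.8) in pEx5, a log2 difference of 1.03 (SE 0.072). Sparc, a secreted collagen-binding protein, stood at 32.1 and 35.0 against 61.2 and 69.7 CPM in total lysate, 19.9 and 21.5 against 33.9 and 37.8 in nuclei, and 34.0 and 35.1 against 64.4 and 70.1 in cytoplasm. The Sparc log2 difference was 0.91 (SE 0.052; edgeR adjusted p = 2.6e-07), with replicates closer to each other than the lines were in each fraction. Flnc, an actin cross-linker, ranged from 55.7 to 102 CPM in mEx5 and from 91.3 to 235 in pEx5 (log2 difference 0.96, SE 0.071). Its ranges over all fractions overlap because its level differed between fractions, while within a fraction the lines were apart.

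Plat, the tissue plasminogen activator, ranged from 12.1 to 16.9 CPM in mEx5 and 21.6 to 36.4 in pEx5 (log2 difference 0.88, SE 0.088). Procr, the protein C receptor, ranged from 4.79 to 8.22 against 9.38 to 13.8 CPM (0.89 on the log2 scale, SE 0.089). Pltp, a phospholipid transfer protein, ranged from 11.5 to 13.7 against 19.7 to 27.1 CPM (0.89, SE 0.081). These 3 had no overlap even across fractions. Aebp1, a protein of collagen-rich matrix, ranged from 35.9 to 67.8 against 54.5 to 147 CPM (0.88 on the log2 scale, SE 0.082). Popdc3, a membrane protein of the Popeye family, ranged from 5.53 to 6.90 against 10.8 to 13.2 CPM (0.95, SE 0.085). Ctla2b, a cysteine protease inhibitor gene, was higher by 0.95 on the log2 scale (SE 0.17), but it is uncertain because it may share reads with its near copy Ctla2a (0.86, SE 0.10), and it was not called without the second mEx5 or the second pEx5 culture (edgeR adjusted p up to 0.26).

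Among genes lower in pEx5, Adcyap1r1 led; it encodes the receptor of the neuropeptide PACAP (ENSMUSG00000029778.12, chr6:55451978-55501451, plus strand, mm10). It stood at 79.5 and 98.7 CPM in mEx5 and 30.4 and 40.0 in pEx5 in total lysate. In nuclei it stood at 130 and 166 against 61.0 and 75.0 CPM, and in cytoplasm at 86.1 and 110 against 39.4 and 42.7. No pEx5 library reached a mEx5 library, and the difference was -1.24 on the log2 scale (SE 0.054; edgeR adjusted p = 2e-08), 2.37-fold lower. Slc10a4, a synaptic-vesicle transporter, stood at 56.2 and 63.4 against 22.7 and 29.9 CPM in total lysate, with a log2 difference of -1.14 over the fractions (SE 0.056). In each fraction the lower mEx5 library lay above the higher pEx5 library.

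Lmo1, a LIM-only transcriptional cofactor, ranged from 25.5 to 54.3 CPM in mEx5 and from 12.9 to 27.5 in pEx5 (-1.02 on the log2 scale, SE 0.077). Tbx2, a T-box repressor, ranged from 51.6 to 103 against 32.8 to 49.6 CPM (-0.78, SE 0.091), with no overlap across fractions. Id2, which binds and blocks basic helix-loop-helix factors, ranged from 7.18 to 10.1 against 3.31 to 6.57 CPM (-0.83, SE 0.11), and was not called with summed cultures (edgeR adjusted p = 0.19) or without the second mEx5 culture (0.11).

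Syn2, a synaptic-vesicle phosphoprotein, ranged from 71.0 to 91.5 CPM in mEx5 and from 34.8 to 53.1 in pEx5 (-0.93 on the log2 scale, SE 0.058). Lrrn3, a neuronal leucine-rich-repeat membrane protein, ranged from 47.2 to 71.1 against 25.4 to 47.8 CPM (-0.82, SE 0.058). Nrp1, a receptor of class 3 semaphorins and VEGF, ranged from 24.8 to 64.5 against 17.5 to 38.9 CPM (-0.75, SE 0.067). Zcchc12, a zinc-finger coactivator, was lower by 0.82 on that scale (log2 difference -0.82, SE 0.055). The plot of the named genes by library shows the same order of lines in the 3 fractions.

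**Figure D2:**
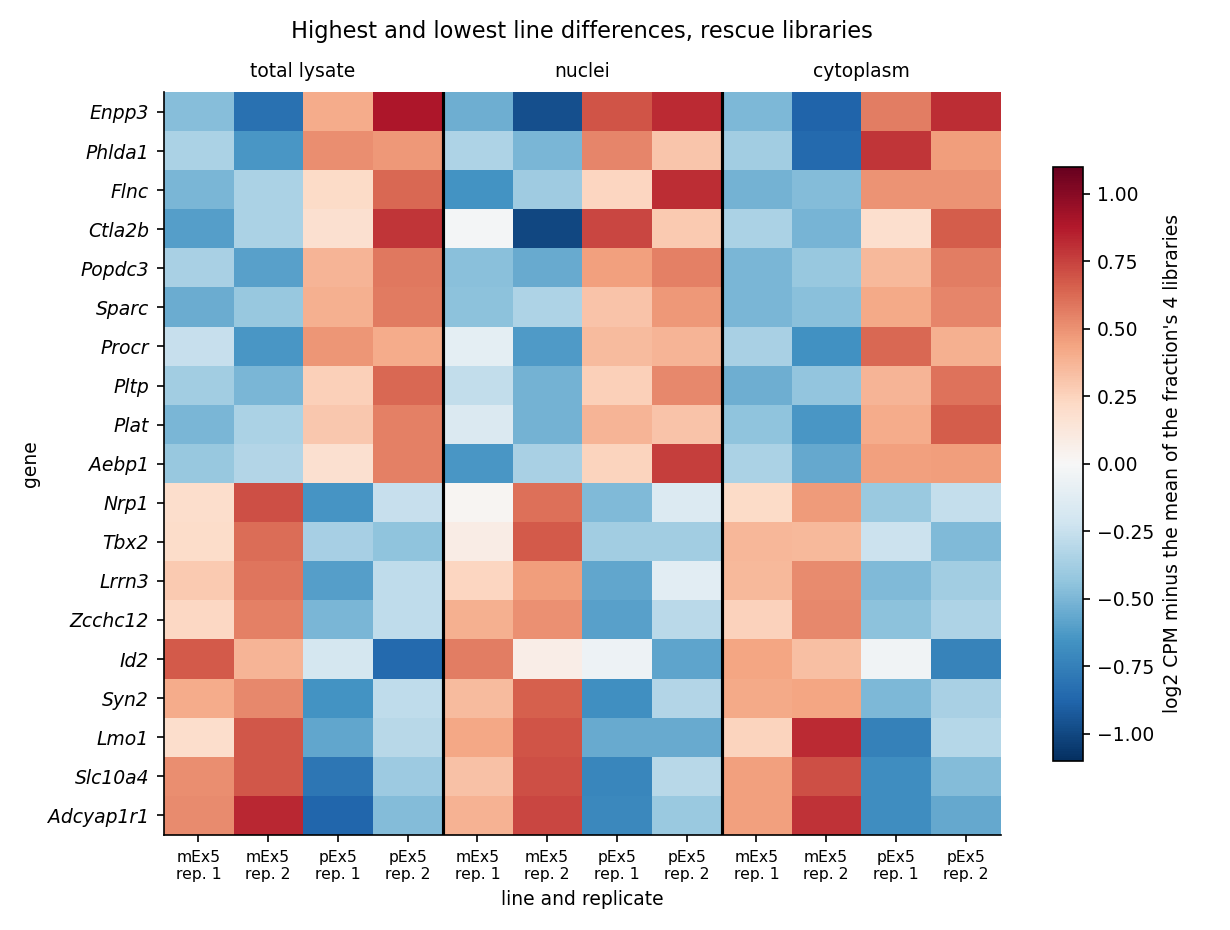
Heat map of 19 named genes (rows) in the 12 rescue libraries (columns); colour is log2 CPM minus the mean of the 4 libraries of that fraction, red above and blue below. The upper 10 genes are red in pEx5 and the lower 9 are red in mEx5 in total lysate, nuclei and cytoplasm, as the rule that chose them requires.

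The same lines without doxycycline differed in the same direction for most of these genes. Over 9239 genes the pEx5 minus mEx5 difference in rescue and that in knockdown libraries, which share no library but share the lines and replicate numbers, had Pearson r = 0.793 and Spearman rho = 0.718 (across genes, which are not independent). Of the 720 genes called in rescue, 713 had the same sign in knockdown. Their median size was 0.295 on the log2 scale in rescue, where they were chosen, and 0.254 in knockdown, and 511 of the 720 were larger in rescue. Over the 3 fractions of the knockdown libraries 1315 genes were called (14.2%), with 0 in each fraction fitted alone without the replicate block. This count was not refitted with summed cultures. Rescue and knockdown shared 494 calls with the same direction, which is 68.6% of the rescue calls and 37.6% of the knockdown calls. No gene was called in opposite directions.

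The lead genes were among them. Without doxycycline Enpp3 stood at 8.13 and 10.8 CPM in mEx5 and 25.5 and 34.9 in pEx5 in total lysate, and its log2 difference over the fractions was 1.58 (SE 0.061), against 1.39 in rescue. Adcyap1r1 stood at 58.1 and 95.0 against 29.1 and 40.0 CPM, and its difference was -1.22 (SE 0.066), against -1.24 in rescue. Under control siRNA, in total lysate, Enpp3 stood at 23.7 and 23 against 54.0 and 56.0 CPM and Adcyap1r1 at 103 and 128 against 63.4 and 67.3. The lines thus stood apart in these genes under all 3 conditions.

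**Figure D3:**
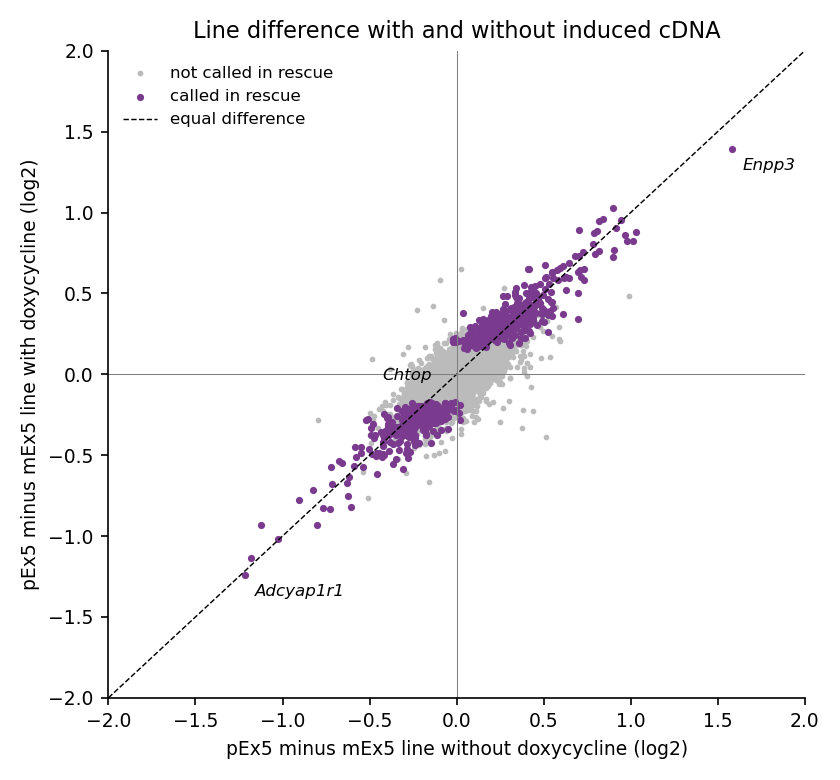
Each point is a gene; the x axis is the log2 difference of pEx5 minus mEx5 over the 3 fractions without doxycycline, the y axis that with doxycycline. Purple points were called in rescue, the dashed line marks equal differences, and the purple points follow it (713 of 720 with the same sign); Chtop lies off it, at -0.49 without and 0.10 with doxycycline.

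The difference of these differences asks what the induced cDNAs and doxycycline add to the line difference. No gene passed (0%) over the 3 fractions, where 238 of 9239 had an unadjusted p under 0.05 by edgeR and DESeq2 called 0. In total lysate none of 9237 passed (0%; 45 with an unadjusted p under 0.05 by edgeR, and 0 by DESeq2), and in nuclei none of 9239 (0%; 22 with an unadjusted p under 0.05, and 0 by DESeq2). In cytoplasm none of 9238 passed (0%; 264 with an unadjusted p under 0.05 by edgeR), and DESeq2 called 6, all lower in pEx5. By chance 462 genes would have an unadjusted p under 0.05 in each of these edgeR fits, and fewer had it. With the replicate block in the single fractions, 672 in total lysate, 203 in nuclei and 397 in cytoplasm had it, again with 0 called. The 0 calls therefore cannot show that nothing was added. The median SE of the difference of differences over the 3 fractions was 0.095, and differences of 0.26 and -0.25 did not pass, as the next values show.

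The smallest p-values in this test belonged to Sars2, a mitochondrial seryl-tRNA synthetase (0.26, SE 0.081), Emp1, an epithelial membrane protein (-0.25, SE 0.077), and B4galnt4, a glycosyltransferase (0.20, SE 0.063), each with an edgeR adjusted p of 1. In cytoplasm they belonged to Zfas1, a noncoding snoRNA host (-0.94, SE 0.19), the ribosomal protein pseudogene Rpl10a-ps1 (-1.01, SE 0.22) and Ndufa6, a complex I subunit (-0.59, SE 0.13), each with an adjusted p of 0.99. In total lysate Chtop itself had the smallest (0.97, SE 0.25; unadjusted p = 0.0051, edgeR adjusted p = 1).

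The cytoplasmic result rested on 1 library. Without the second pEx5 knockdown library of cytoplasm, 344 genes passed, 37 higher and 307 lower, on the assumption that the lone remaining pEx5 knockdown library varies as the other groups do. In that fit the medians of 83 cytosolic ribosomal protein genes and 78 nuclear-encoded respiratory chain genes were -0.19 and -0.50, against 0.023 over all genes. With all 8 libraries the medians of these lists were already negative, -0.20 and -0.37, against 0.003 over all genes.

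By fraction, total lysate had 13 genes higher and 8 lower in pEx5 (0.227% of 9235 by edgeR). With the replicate number as a block, which the pairing of the replicates allows, 366 were called (3.96%). All 21 were also called over the 3 fractions, and 20 of them in cytoplasm. The 4 highest were Enpp3 (1.31 on the log2 scale, SE 0.18), Ctla2a (1.13, SE 0.15, with the same doubt as Ctla2b), Phlda1 (1.00, SE 0.14) and Sparc (0.98, SE 0.12). Among the lowest were Adcyap1r1 (-1.33, SE 0.14), Slc10a4 (-1.18, SE 0.13) and Syn2 (-0.92, SE 0.13). The count fell to 0 without the second mEx5 or the first pEx5 library, to 4 without the first mEx5 library and to 11 without the second pEx5 library.

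In nuclei no gene of 9238 passed (0%); 456 had an unadjusted p under 0.05 by edgeR, against 462 expected by chance, and DESeq2 called 12. With the replicate block, edgeR called 945 (10.2%; 445 higher and 500 lower). The smallest p-values without the block belonged to Enpp3 (1.51, SE 0.20), Lmo1 (-1.12, SE 0.18) and Gap43, a growth-cone protein (-0.95, SE 0.15), each with an edgeR adjusted p of 0.73. Gap43 stood at 161 and 146 CPM in mEx5 and 83.0 and 74.9 in pEx5 in nuclei, so its lines were apart by more than the replicates. Leaving out 1 nuclear library gave 5 to 201 calls, the most without the first pEx5 library.

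In cytoplasm 207 genes were higher (2.24%) and 286 lower (3.1%) in pEx5, 5.34% of 9232 by edgeR, and 1499 with the replicate block (16.2%). Sharing the spread with all cytoplasmic libraries left 25. The order of the fractions by calls depended on the fit: cytoplasm had the most in these fits but the fewest with all libraries of the fraction and the replicate block, 77 against 245 in total lysate and 1114 in nuclei. The count was 318 without the second mEx5 and 264 without the first pEx5 library. The 4 highest were Enpp3 (1.36 on the log2 scale, SE 0.13), Phlda1 (1.23, SE 0.17), Plat (1.07, SE 0.12) and Procr (1.01, SE 0.16). The lowest, after Adcyap1r1 (-1.27, SE 0.11) and Slc10a4 (-1.18, SE 0.11), were 2 ribosomal protein loci, Rps27 (-1.06, SE 0.13) and the pseudogene Rpl36a-ps2 (-1.01, SE 0.14), whose reads near-identical copies may share. Rps27 stood at 23.4 and 23.4 CPM in mEx5 and 13.1 and 9.72 in pEx5 in cytoplasm. In total lysate its 4 libraries did not part by line: 34.4 and 35.6 against 112 and 30.2 CPM.

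Line differences in the fractions were only loosely alike across genes, which share cultures between fractions: Spearman rho was 0.16 for total lysate and nuclei, 0.466 for total lysate and cytoplasm, and 0.506 for nuclei and cytoplasm. Of the 493 genes called in cytoplasm, 256 were also called over the 3 fractions.

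In cytoplasm, genes of protein synthesis and respiration were lower in pEx5 far more often than higher. Of 83 cytosolic ribosomal protein genes, 34 were lower and 3 higher in pEx5 (median -0.24), and of 78 nuclear-encoded respiratory chain genes, 33 were lower and 0 higher (median -0.32). Over all genes 3.1% were lower and 2.24% higher, with a median of 0.002. Of 15 mitochondrially encoded transcripts, 6 were lower (median -0.27), and of 13 noncoding snoRNA host genes, whose introns carry snoRNAs, 4 were lower (median -0.31); with the replicate block, which called 16.2% of all genes, these were 13 and 9. The counts for the ribosomal and respiratory lists were 0 when the spread was shared with all cytoplasmic libraries. They were 20 and 12 lower without the second mEx5 library, 20 and 19 without the first pEx5 library, and 22 each without the second pEx5 library.

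The shares of counts in each library show where the lines parted. Ribosomal protein genes took 6.16% and 6.6% of cytoplasmic counts in the mEx5 rescue and 5.77% and 5.79% in the pEx5 rescue. The knockdown libraries lay at 5.71% and 5.94% in mEx5 and 5.75% and 5.99% in pEx5. The control siRNA libraries held 7.47% and 7.03% in mEx5 and 6.56% in the single pEx5 library. The mEx5 rescue thus lay above the pEx5 rescue and both knockdown groups, but not above the control groups. Nuclear-encoded respiratory chain genes took 1.17% and 1.33% in the mEx5 rescue and 1.07% and 1.16% in the pEx5 rescue. Their share was 1.18% to 1.28% in the knockdown libraries of both lines. Under control siRNA it was 1.28% and 1.26% in mEx5 and 1.17% in pEx5.

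In nuclei the medians of the ribosomal and respiratory lists were -0.33 and -0.38, with 0 of 83 and 2 of 78 values above 0. None of these genes was called in nuclei without the replicate block, and with it 44 of 83 and 44 of 78 were lower and 0 higher, where 10.2% of all genes were called. In total lysate the medians were 0.12 and 0.12. Ribosomal protein genes took 7.95% and 7.31% of total-lysate counts in mEx5 and 8.92% and 7.19% in pEx5, with overlap. The difference between cytoplasm and total lysate had medians of -0.35 and -0.40, but no gene of 9237 passed that test (0%; 105 with an unadjusted p under 0.05 by edgeR, 10 of them ribosomal and 8 respiratory), a comparison chosen after seeing the data. Mitochondrially encoded RNA moved with these lists in cytoplasm, at 2.52% and 2.47% of counts in the mEx5 and 2.04% and 2.15% in the pEx5 rescue. Its shares overlapped between lines in total lysate (4.97% and 3.52% against 4.76% and 3.74%). They also overlapped in nuclei (1.61% and 0.674% against 0.893% and 0.676%). The part of mitochondrially encoded RNA in the result was not tested.

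**Figure D4:**
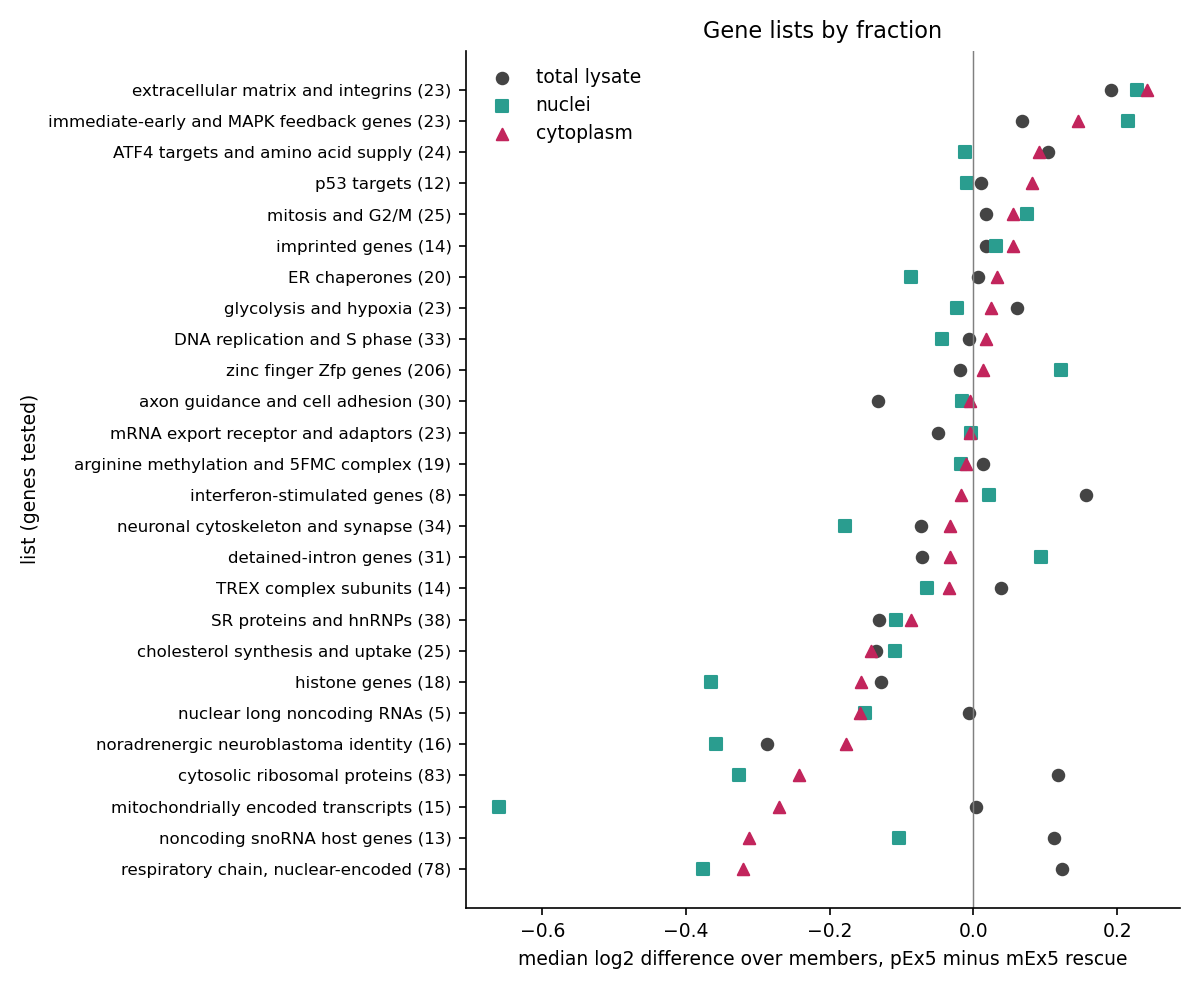
Median log2 difference of pEx5 minus mEx5 rescue (x axis) over the tested members of 26 gene lists (y axis, number tested in brackets) in total lysate, nuclei and cytoplasm. Ribosomal and respiratory lists lie left of 0 in nuclei and cytoplasm and right of it in total lysate, and extracellular matrix genes lie right of 0 in all 3.

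Extracellular matrix and integrin genes were the list with most members higher in pEx5 over the 3 fractions: 10 of 23 were higher and 1 lower, where 4.39% and 3.4% of all genes were, with a median of 0.21 against -0.011 over all genes. Besides Sparc, Col22a1, a collagen of tissue junctions, ranged from 15.3 to 27.7 CPM in mEx5 and from 21.8 to 44.9 in pEx5 (0.67 on the log2 scale, SE 0.066). Fbln2, an elastic-fibre protein, stood at 217 and 207 against 331 and 338 CPM in cytoplasm (0.60 over the fractions, SE 0.062). The one lower member, named after its value was seen, was Mmp15, a membrane metalloprotease (-0.37, SE 0.062). Without doxycycline 14 were higher and 1 lower (median 0.23), where 693 and 622 of all 9239 genes were. With summed cultures 4 were higher and 0 lower.

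Markers of fibroblasts and mesenchyme were set beside this list from the deposited RPKM values, which cover genes outside the count table. Their sum ran from 4.06 to 10.3 RPKM in mEx5 and 9.92 to 31.9 in pEx5 libraries, and 10 of 13 markers stayed under 0.5 RPKM in every rescue library, Col1a1, Col1a2, Col3a1 and Dcn among them. Acta2, smooth-muscle actin, made up most of the sum: it stood at 8.70 and 7.74 RPKM in mEx5 and 30.3 and 28 in pEx5 in total lysate, and at 8.29 and 7.18 against 27.2 and 28.8 in cytoplasm. Leukocyte markers summed to 0.22 to 12.9, endothelial markers to 2.76 to 9.17, Schwann cell and glial markers to 6.08 to 54.8 and epithelial markers to 21.7 to 25 RPKM over both lines, with ranges that overlapped between lines.

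Of 16 genes of noradrenergic neuroblastoma identity, 8 passed the test as lower in pEx5 and 1 as higher (median -0.23), where 3.4% and 4.39% of all genes did, and with summed cultures 4 and 1. Lmo1 and Tbx2 are given above. The higher member, named after its value was seen, was Scg2, a secretory granule protein (0.64, SE 0.076). Without doxycycline 10 were lower and 1 higher, where 622 and 693 of all 9239 genes were. The neuroblastoma markers outside the count table include Isl1, a LIM homeodomain factor, at 8.81 and 12.9 RPKM in mEx5 and 4.64 and 5.16 in pEx5 in total lysate, and Gata3 at 3.93 and 3.65 against 1.98 and 1.61. Both were untested there. Not every marker was lower in pEx5. Ddc had a median of 7.6 RPKM (6.09 to 10.8) in mEx5 and 11.3 (9.54 to 12.9) in pEx5. Gata2 had medians of 63.2 RPKM in mEx5 and 66.1 in pEx5. Among the markers of the labelled cell type, Hand2 ranged from 101 to 257 RPKM and Tubb3 from 205 to 623 over both lines.

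Neuronal cytoskeleton and synapse genes had 9 of 34 lower and 1 higher (median -0.09), against 3.4% and 4.39% of all genes. Gap43 fell from a median of 225 CPM (146 to 280) in mEx5 to 152 (74.9 to 170) in pEx5, a log2 difference of -0.72 (SE 0.079). Dpysl3, a collapsin response mediator, stood at 395 and 410 against 277 and 289 CPM in cytoplasm (-0.48 over the fractions, SE 0.055). Cplx2, complexin 2, differed by -0.44 (SE 0.066). Of 30 axon guidance and adhesion genes 7 were lower and 0 higher against the same shares, led by Nrp1, the netrin receptor Unc5c (-0.41, SE 0.056) and the guidance ligand Slit3 (-0.46, SE 0.066). With summed cultures 3 genes of each list were lower.

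Genes of TREX, of export receptors and adaptors, and of arginine methylation were called no more often than all genes, of which 7.79% passed. Their counts do not set them apart. None of 14 TREX subunits passed over the 3 fractions (median -0.019), from -0.21 for Alyref (SE 0.076) to 0.40 for Zc3h11a (SE 0.21). Of 23 export receptor and adaptor genes 1 passed, Rae1, an mRNA export factor at the nuclear pore (0.18, SE 0.047; edgeR adjusted p = 0.038). Of 19 genes of arginine methylation and the 5FMC complex 1 passed, Wdr77, the partner of Prmt5 (-0.24, SE 0.058; 0.026). Neither Rae1 nor Wdr77 was called with summed cultures (edgeR adjusted p = 0.53 and 0.33). Of 38 SR protein and hnRNP genes 4 were lower and 0 higher (median -0.13; 3.4% and 4.39% of all genes), and 0 with summed cultures. Among the 4 were Pcbp2 (-0.24, SE 0.054), the neuronal splicing repressor Ptbp2 (-0.33, SE 0.078) and Hnrnpa1 (-0.25, SE 0.065).

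Nuclear retention was compared through the nuclear to cytoplasmic ratio. No gene of 9239 passed (0%; 175 with an unadjusted p under 0.05 by edgeR, 0 called by DESeq2), with a median SE of 0.193. By chance 462 would have such a p, so the 0 calls cannot show that no ratio differed. With the replicate block 224 had it. The smallest p-values belonged to Rpl10a-ps1 (1.02, SE 0.27), Pias3, a SUMO ligase (0.72, SE 0.19), and Rps3a1 (-0.90, SE 0.24), each with an adjusted p of 1. Pias3 stood at 31.5 and 34.6 CPM in mEx5 and 37.3 and 44.7 in pEx5 in nuclei, and at 17.2 and 15.7 against 12.3 and 13 in cytoplasm. Chtop had a ratio difference of -0.021 (SE 0.21). Over the 31 detained-intron genes the median was 0.14 and over 206 Zfp genes 0.12, with none called. In the authors' deposited table the same difference of log2 ratios exceeded 0.5 for 207 genes and was under -0.5 for 176 of 9239, and over these genes it followed the fitted values with r = 0.793.

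The counts for metabolic and growth genes stand beside 4.39% of all genes higher and 3.4% lower. Genes of cholesterol synthesis and uptake had 6 of 25 lower and 0 higher (median -0.13), with Idi1 (-0.43, SE 0.060), Pmvk (-0.45, SE 0.085) and Fdps (-0.33, SE 0.075), 3 enzymes of isoprenoid synthesis, and 1 of the 6 was called with summed cultures. Immediate-early and MAPK feedback genes had 5 of 23 higher and 2 lower, and 1 and 0 with summed cultures. Dusp4, a MAPK phosphatase, stood at 195 and 197 against 236 and 334 CPM in total lysate (0.60 over the fractions, SE 0.093), and Dusp6, another, differed by 0.39 (SE 0.071). Of 23 genes of glycolysis and hypoxia 5 were higher, such as the glycolytic enzymes Eno2 (0.38, SE 0.072) and Pfkm (0.24, SE 0.047), and 1 lower, the glucose transporter Slc2a3 (-0.38, SE 0.056); with summed cultures 0 were higher and 1 lower. ATF4 targets had 2 of 24 higher, near the share over all genes, Trib3 (0.37, SE 0.055) and Sesn2 (0.21, SE 0.056), and 1 with summed cultures. Histone genes had 3 of 18 lower and 0 higher, led by the linker histone Hist1h1c (-0.45, SE 0.077), and 0 with summed cultures.

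The other lists had at most 3 called members each, several at or under the 4.39% higher and 3.4% lower of all genes. Mitosis genes had 2 of 25 higher and 1 lower, interferon-stimulated genes 2 of 8 higher, imprinted genes 2 of 14 higher, Zfp genes 3 of 206 higher, and detained-intron genes 1 of 31 higher. Nuclear noncoding RNAs had 1 of 5 higher, Rian (0.51, SE 0.094), and 1 lower, Neat1 (-0.26, SE 0.068). Replication genes had 0 of 33, chaperones 0 of 20, snoRNA hosts 0 of 13 and mitochondrially encoded transcripts 0 of 15 called over the 3 fractions, p53 targets 1 of 12 lower, and ribosomal and respiratory genes 1 each lower. With summed cultures Rian, which is on both the imprinted and the nuclear noncoding list, was called as higher. So was 1 detained-intron gene, other than the 1 called over the 3 fractions. In the other lists of this paragraph 0 were called.

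Called genes were uneven over the chromosomes. On chromosome 3, which carries Chtop, 64 of 428 tested genes were lower and 9 higher in pEx5, 17.1% called against 7.79% over all genes, with a median of -0.11. Over all genes 4.39% were higher and 3.4% lower. On chromosome 13, 26 of 313 were lower and 4 higher (9.58% called, median -0.096), and on chromosome 19, 26 of 338 and 10 (10.7%, median -0.063). On chromosome 2, 73 of 784 were higher and 5 lower (9.95% called, median 0.072), and on chromosome 4, 42 of 574 and 18 (10.5%, median 0.014). Chromosome 7 had 38 of 712 higher and 10 lower (median 0.038), 6.74% called, which is under the share of all genes. Along chromosome 3, windows of 25 Mb from 0 to 150 Mb had 73.2% to 92.9% of genes below 0, with medians of -0.082 to -0.15; the window from 75 to 100 Mb, which holds Chtop, had 77.3% and the median closest to 0.

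The knockdown libraries leaned the same way, with medians of -0.084, -0.059 and -0.064 on chromosomes 3, 13 and 19 and 0.074 on chromosome 2, but 0.003 on chromosome 7. Of 82 called members of the gene lists, 9 lay on chromosome 3 and all 9 were lower, Fdps, Pmvk, Wdr77, Unc5c and Ptbp2 among them. Of 4 on chromosome 2, 3 were higher, Trib3 and Rae1 among them. Procr and Pltp lie on chromosome 2 as well. Position moves with these lists, and its part in their counts was not tested.

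**Figure D5:**
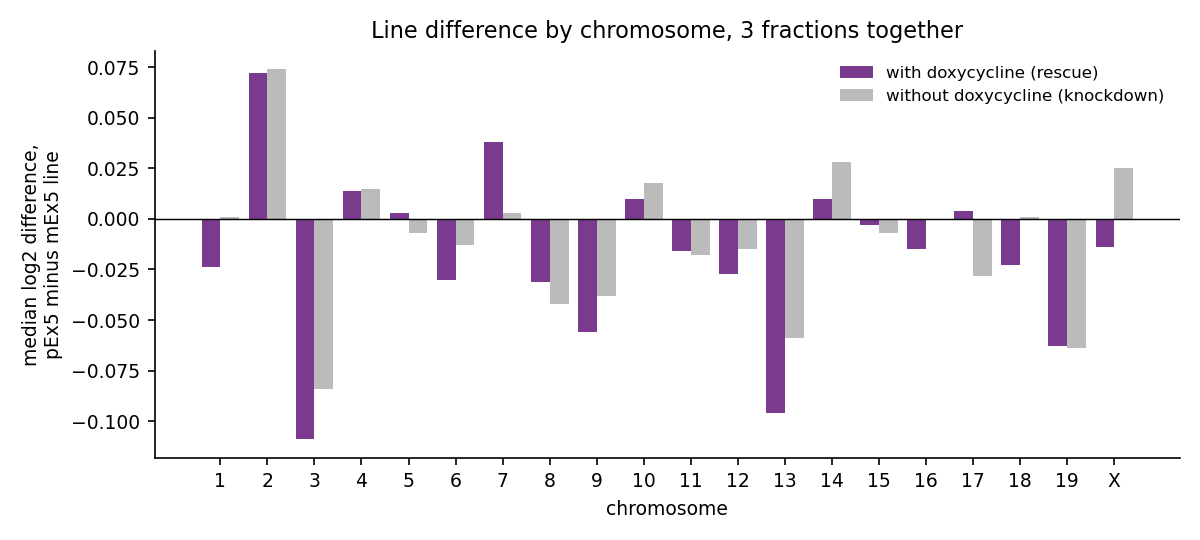
Median log2 difference of pEx5 minus mEx5 over the tested genes of each chromosome with at least 20 (x axis), in rescue libraries (purple) and knockdown libraries (grey), 3 fractions together. Chromosomes 3, 13 and 19 lie lowest and chromosome 2 highest in both.

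Each line was also compared with its own knockdown libraries, which the contrast of the rescues does not use. The mEx5 rescue changed 62 genes upward and 34 downward and the pEx5 rescue 108 and 37, of which 39 were shared in direction (40.6% and 26.9% of the calls) and 0 opposite, over 9239 genes in an edgeR fit of 24 libraries (1.04% and 1.57% called). The lead genes did not pass this test in either line: Enpp3 differed from knockdown by 0.17 (SE 0.10) in mEx5 and -0.02 (SE 0.093) in pEx5, and Adcyap1r1 by 0.07 (SE 0.063) and 0.06 (SE 0.066), with edgeR adjusted p from 0.45 to 0.93.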

How the data were processed

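Poly(A) RNA was measured in total lysate, nuclei and cytoplasm. Salmon 0.14.1, DESeq2 with no version and the mm10 build are named in the submitters' processing notes. The count table the authors deposited holds whole numbers for 9239 genes, and nothing states how those genes were selected. Deposited RPKM values, which per the file headers divide reads by transcript length and by library size, exist for 54393 genes. Markers among the 45154 of these that lack counts were read from them, leaving out 1 column that matches no sample. Log2 ratios between fractions were taken from the authors' deposited table.

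Counts were tested with edgeR 4.0.16 in R 4.3.3: filterByExpr, TMM scaling, robust quasi-likelihood fit, Benjamini-Hochberg adjustment over all genes of a fit, calls under 0.05. The SE of a log2 difference is its size over the root of the F statistic. Differences are pEx5 minus mEx5. Single fractions were fitted without, and the 3 fractions together with, the replicate number as a block. Replicate numbers were taken to pair samples because deviations of same-numbered rescue libraries correlated at 0.63 in total lysate, 0.59 in nuclei and 0.39 in cytoplasm. Alternatives were DESeq2 1.42.0, its size factors, library totals, no filter, the block, other libraries in the fit, summed cultures, limma 3.58.1 voom with culture as a random block, and leaving out each library or culture. An exact permutation test of 2 against 2 cannot go below p = 0.333. The scripts were tested on simulated data. In fits of single fractions and of summed cultures, p-values measure the spread between replicates that the labels call biological. In fits of the 3 fractions together they also measure spread between fractions of the same culture, which are not independent.

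The libraries and 26 gene lists with 6 marker lists were chosen with earlier results of these data known. Genes named are Chtop, the 10 highest and 10 lowest called genes of the 3-fraction fit without overlap between lines (mean of at least 5 CPM), up to 4 each way in other fits (or the 3 smallest p-values where none is called), and up to 3 called members of a list; predicted genes were passed over. Some genes that these rules or the marker lists name are not reported here. Positions came from GENCODE M21.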

Additional observations from a re-analysis of the deposited data

How the results depend on the processing

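Counts of called genes moved with the fit. For total lysate (21 called) DESeq2 called 71, the replicate block 366, all libraries of the fraction 0, these with the block 245, and leaving out 1 library 0 to 11. For nuclei (0 called) the same settings gave 12, 945, 1 and 1114, and leaving out 1 library 5 to 201. For cytoplasm (493 called) the replicate block gave 1499, all libraries of the fraction 25, these with the block 77, and leaving out 1 library 264 to 638. Over the 3 fractions (720 called) no replicate block gave 442, summed cultures 113, limma voom with culture as a random block 1193, and leaving out 1 culture 52 to 269. The nuclear to cytoplasmic ratio (0 called) gave 1 without the first pEx5 nuclear library and 0 without each other library. For the difference of line differences in cytoplasm (0 called) DESeq2 gave 6, and leaving out 1 library 0 to 344. The replicate block left the ratio and the differences of line differences at 0 called. Where no cause is built into the setting (fewer samples, summed libraries), the cause was not tested. The fits with all libraries of a fraction and the block, and the comparison of cytoplasm with total lysate, were chosen after seeing the data. Of 1183 values of named genes under alternatives, 948 kept direction and side of the threshold, 213 no longer passed, 22 newly passed and 0 reversed. The estimated correlation between fractions of a culture in the voom fit was -0.079. Other scalings left the median over all genes within 0.1 on the log2 scale. For the rescue comparison, by fraction and over the 3 fractions, they kept the sign of every list median printed in the text. List medians of the ratio, the knockdown libraries, the difference of line differences and cytoplasm minus total lysate were not refitted. Among medians only plotted, some within 0.02 of 0 changed sign. Mitochondrially encoded transcripts in total lysate had 0.004 with TMM and -0.012 with library totals. Line and isoform cannot be told apart, and the nuclear libraries, the shallowest, had the widest spread between replicates.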
